A study of Mus musculus with 10 samples.

Results

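Vascular endothelial growth factors signal to endothelial cells through 3 receptor tyrosine kinases and 2 neuropilin coreceptors, and the mRNAs of these 5 genes were followed here: Flt1 (VEGFR1), Kdr (VEGFR2), Flt4 (VEGFR3), Nrp1 and Nrp2. They were chosen by name as the VEGF receptor and neuropilin genes, 5 of 42612 genes shared by the plate tables and 5 of 32245 symbols in the droplet matrices. VEGFR3 is the receptor of VEGF-C and drives lymphatic growth, VEGFR2 binds VEGF-A and is the main receptor of blood vessel growth, and VEGFR1 holds VEGF-A with high affinity and little kinase activity. Nrp2 binds VEGF-C beside VEGFR3 in lymphatic endothelium, Nrp1 binds VEGF-A beside VEGFR2, and both also bind class 3 semaphorins together with plexins.

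The cells came from mouse ear skin, and 3 models of reduced angiopoietin/Tie signaling were compared. Lymphatic endothelial cells (LECs) were sorted as live CD31+ PDPN+ CD45- CD11b- Ter119- cells, 1 cell per well, and sequenced with Smart-seq on 8 plates, 2 for each of 4 groups: Cre-negative Tie1 fl/fl and Tie1 Tie2 fl/fl controls, Prox1-CreERT2 Tie1 fl/fl mice (Tie1 iDLEC) and Prox1-CreERT2 Tie1 fl/fl Tie2 fl/fl mice (Tie1 Tie2 iDLEC). Pups of all 4 groups were given 62.5 µg 4-hydroxytamoxifen (4-OHT) from P1 to P5, and Prox1-CreERT2 recombines floxed alleles in cells that express Prox1. Plate 1 of the Tie1 fl/fl and of the Tie1 iDLEC group was from females and the other 6 plates were from males. For the third model, CD31+ cells of male wild-type C57Bl/6j mice that had received 20 mg/kg of IgG1 or of Ang2-blocking antibody (Ang2 Ab) every 3 days from P16 to P21 were sequenced as 1 droplet (10x) library each. Per the study, the plates were made from mice some weeks after the deletion. The sample labels give neither the age at collection nor the number of mice behind a plate or library, the title of the Ang2 Ab library also calls it a control, and a plate was taken as the replicate, so the p-values measure the spread between plates, which may be technical.

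Of 3048 wells, 2712 were kept as LEC wells, 303 to 355 per plate, with 66833117 to 104651972 counts per plate. Wells that held few genes (22) or were led by fibroblast, keratinocyte or hemoglobin genes (314) were left out. The plates came in 2 table layouts, 1 with gene symbols and 1 with Ensembl identifiers, and each group had 1 plate of each. Symbol plates had a median of 5841.5 to 7002 genes per LEC well and Ensembl plates 3613 to 4979.5, so layout is named beside results that move with it. Tie1, the gene deleted in both strains, was at 2218 to 2839 CPM (counts scaled to a library of 1e+06, with TMM factors over the plates) in the 4 control plates and at 461 to 744 CPM in the 4 deleted plates, and Tek, which encodes Tie2, was at 215 to 339 CPM in controls and Tie1 iDLEC plates but 32.7 and 53.2 CPM in Tie1 Tie2 iDLEC plates. Prox1, the transcription factor that defines LECs, was at 686 to 1098 CPM on every plate. The droplet libraries shared 5 barcodes of 4685 and 4331, and after filtering they held 1249 (IgG) and 717 (Ang2 Ab) LECs.

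The members lie on 4 chromosomes of GRCm38. Kdr (ENSMUSG00000062960, chr5:75932827-75978458, minus strand) and Flt1 (ENSMUSG00000029648, chr5:147561604-147726011, minus strand) are both on chromosome 5, Flt4 (ENSMUSG00000020357, chr11:49609263-49652739, plus strand) is on chromosome 11, Nrp1 (ENSMUSG00000025810, chr8:128358604-128503363, plus strand) on chromosome 8 and Nrp2 (ENSMUSG00000025969, chr1:62703285-62818695, plus strand) on chromosome 1. Counts were summed over the exons of each gene. Results below turn on Kdr and Nrp2, the members that were lowest in the Tie1/-2-deleted plates relative to their controls, so the 200 bases from 250 to 51 bases before their RefSeq start sites (GRCm38.p6) are shown, each 5′ to 3′ on the strand of its gene, at chr5:75978506-75978705 for Kdr and chr1:62703067-62703266 for Nrp2. Capitals mark the GC box GGGCGG and the ETS core CCGGAA in either orientation.
Kdr: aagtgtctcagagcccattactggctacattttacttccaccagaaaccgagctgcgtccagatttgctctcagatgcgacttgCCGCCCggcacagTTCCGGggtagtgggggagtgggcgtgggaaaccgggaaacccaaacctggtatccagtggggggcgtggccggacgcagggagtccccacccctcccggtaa
Nrp2: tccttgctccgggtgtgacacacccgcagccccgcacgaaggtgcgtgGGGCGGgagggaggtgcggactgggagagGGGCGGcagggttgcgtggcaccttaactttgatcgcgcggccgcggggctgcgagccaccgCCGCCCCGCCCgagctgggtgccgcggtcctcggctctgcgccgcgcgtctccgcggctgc
Kdr held the ETS core once, a motif found in 8.03% of 32851 promoter windows of this length, and none of the other 4 members held it. The GC box was in all 5 windows, 4 times in Nrp2 with 2 of these overlapping, 2 times in Flt1 and once in each of the others, against 24.6% of all windows. Nrp1 held the nuclear receptor half-site AGGTCA once (11.4% of windows). The GATA factor motif AGATAA was in none of the 5 windows, against 8.42% of all windows. The forkhead motif GTAAACA (2.58% of all windows) was likewise in none of the 5. The same was true of the SOX factor motif ACAATG (8.94%). The Nrp2 window had a GC content of 75.5% and the Kdr window 61%, against a median of 51.5% over all windows. A match here describes the sequence and was not tested as a binding site.

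In control LECs 3 of the 5 members were abundant and 2 were close to absent. Flt4 was the highest: the Tie1 fl/fl plates held 1535 and 1239.7 CPM, and 1390.2 and 1866 CPM were found in those of the Tie1 Tie2 fl/fl group (1508 ± 267 CPM, SD, n = 4). Kdr was at 616, 668, 873 and 725 CPM in the same order (720.4 ± 111 CPM). Nrp2 was at 407, 289, 419 and 425 CPM (385 ± 64.5 CPM), lowest in the male Tie1 fl/fl plate. Since longer transcripts collect more reads, levels were compared between genes per kilobase of exon, where Flt4 was at 183 ± 32.5, Kdr at 79.8 ± 12.3 and Nrp2 at 32.5 ± 5.45 CPM per kb, and the ranges of the 4 plates of these 3 genes did not overlap. Flt1 (0.169 ± 0.119 CPM per kb) and Nrp1 (0.125 ± 0.155 CPM per kb) did overlap.

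The same split was seen per well. Flt4 had at least 1 count in 2709 of the 2712 LEC wells, Kdr in 2597 and Nrp2 in 2243, whereas Nrp1 had a count in 153 wells and Flt1 in 143. The 3 highest wells of a plate held 65.8% to 92.5% of its Flt1 counts on the 7 plates that had any. At least 100 Flt1 counts were found in 5 wells, 2 on the Tie1 Tie2 fl/fl plate 2 and 3 on the Tie1 Tie2 iDLEC plate 2, which are both symbol plates. In these 5 wells together Flt1, by which they were picked, was at 845 and Nrp1 at 333 CPM, against 1.27 and 0.328 CPM in the other 2707 wells. The 7 markers of blood vascular endothelium (Emcn, Cd34, Ly6c1, Ly6a, Sox17, Notch4, Cxcl12) summed to 2314 against 278 CPM. Blood capillary markers (7) summed to 2088 against 559 CPM and arterial markers (8) to 2944 against 2534 CPM. Venous markers (7) were slightly lower, at 347 against 392 CPM, and the 6 LEC markers were at 3755 against 6693 CPM. Kdr did not set the 5 wells apart (670.0 against 615 CPM), while Flt4 (599 against 1558 CPM), Nrp2 (31.5 against 314 CPM) and Pdpn (42.9 against 552 CPM) were lower in them and Prox1 was at 798 against 865 CPM. For Nrp1 the 3 highest wells held 27.7% to 36.4% of the counts on 4 plates, which had 11 to 94 counts each, and 89.8% to 100% on the other 4. The Flt1 and Nrp1 changes over all LECs of the Tie1 Tie2 strain are therefore given with and without these 5 wells.

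**Figure D1:**
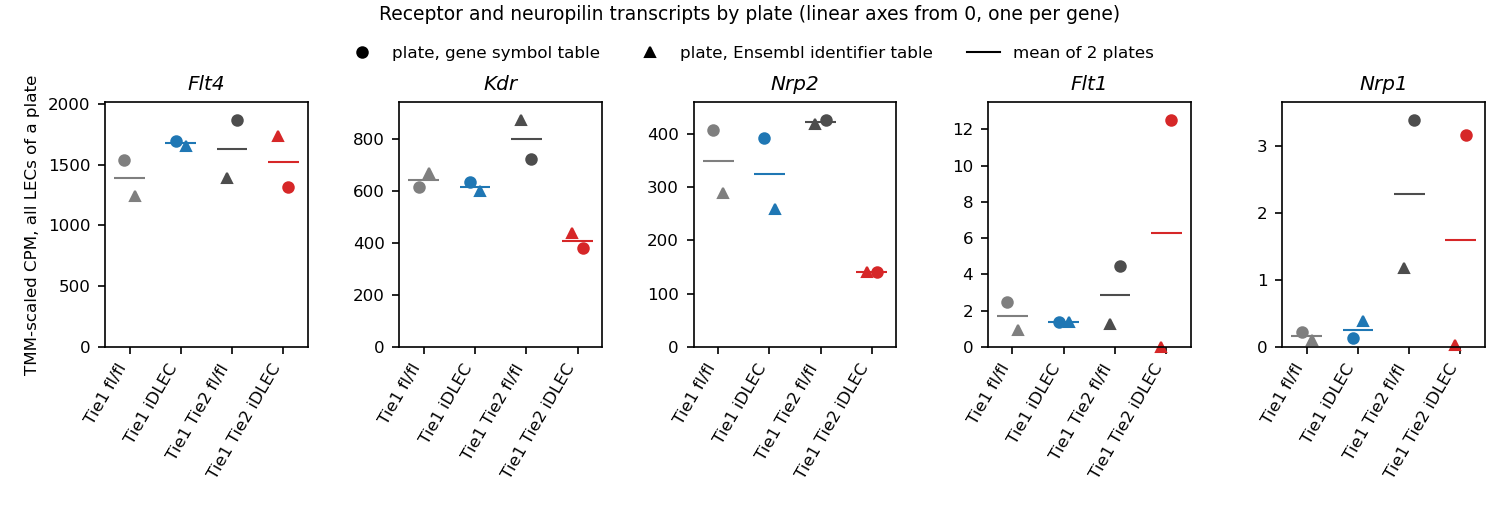
Level of each of the 5 genes in every plate (TMM-scaled CPM of summed LEC wells, linear axes that start at 0), with 1 column per genotype group, circles for symbol-layout plates, triangles for Ensembl-layout plates and a horizontal line at the mean of the 2 plates. The 2 Tie1 Tie2 iDLEC plates are the lowest for Kdr (436 and 379 CPM) and Nrp2 (141 CPM each), while their Flt4 points (1736 and 1313 CPM) lie among the controls.

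The LEC wells were clustered with the 5 members left out, so that their levels did not define the groups, and 3 classes were named from fixed markers: capillary-like (cluster 0, led by Sez6l and Igfbp3), collector-like (cluster 2, led by Slco2a1 and Fabp4) and valve-like (cluster 5, led by Slc41a1 and Gjd3, together with cluster 11, led by Hbegf and Ppfia4). Initial lymphatic capillaries take up fluid, collecting vessels transport it and valve cells form the leaflets that prevent backflow. Nrp2 differed most between the classes. In the 4 control plates it was at 554, 266, 442 and 581 CPM in capillary-like wells, at 480.3, 353, 405 and 416 CPM in collector-like wells and at 88.2, 60.1, 76.2 and 79.8 CPM in valve-like wells (CPM without TMM scaling, in the plate order above). The valve-like values lay below all capillary-like and collector-like values of the control plates. Capillary-like wells exceeded valve-like wells of the same plate by 2.53 ± 0.30 on the log2 scale (SD, n = 4), in the same direction on all 8 plates. The share of all genes that separated these classes in this way was not counted. Outside the 3 classes, unnamed cluster 8, with as few as 7 wells on a control plate, was as low as 26.1 CPM. Capillary-like and collector-like Nrp2 overlapped.

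Flt4 followed the order capillary, collector, valve. Its control means were 1927 ± 386 CPM in capillary-like, 1408 ± 231 CPM in collector-like and 810.4 ± 235 CPM in valve-like wells. Within a control plate, capillary-like wells were higher than valve-like wells by 1.27 ± 0.14 and higher than collector-like wells by 0.44 ± 0.21 (log2, SD, n = 4), in 4 of 4 control plates and 7 of all 8 plates for either pair. Kdr differed less between the classes, with control means of 713 ± 124 CPM (capillary-like), 840 ± 109 CPM (collector-like) and 728 ± 171 CPM (valve-like) and overlapping plates. Within a plate, Kdr was lower in capillary-like than in collector-like wells by 0.24 ± 0.17 on the log2 scale in 4 of 4 control plates and in 6 of all 8 plates, whereas with genes scaled over all plates before clustering it was lower in 2 of 4 control plates. Per kilobase, Nrp2 was therefore at 38.9 CPM in capillary-like and 6.42 CPM in valve-like wells, and Kdr at 78.9 and 80.6 CPM. Flt1 and Nrp1 stayed below 5 CPM on average in each class. Among the remaining wells, proliferating wells held Kdr at 534 ± 260 and Nrp2 at 541 ± 283 CPM, interferon-responding wells held Nrp2 at 521 ± 145 CPM, and unnamed cluster 1 (led by Kcnj8, Rasa4 and Mest) had the highest Flt4 (2039 ± 516 CPM) and Nrp2 (624 ± 307 CPM) of these 3, with plate ranges that overlapped those of capillary-like wells. A control plate held 6 to 23 proliferating wells, 7 to 13 interferon-responding wells and as few as 6 wells of cluster 1. Unnamed clusters made up 132 to 168 LEC wells of a control plate. On the Tie1 Tie2 iDLEC plates they made up 233 of 355 and 236 of 348.

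**Figure D2:**
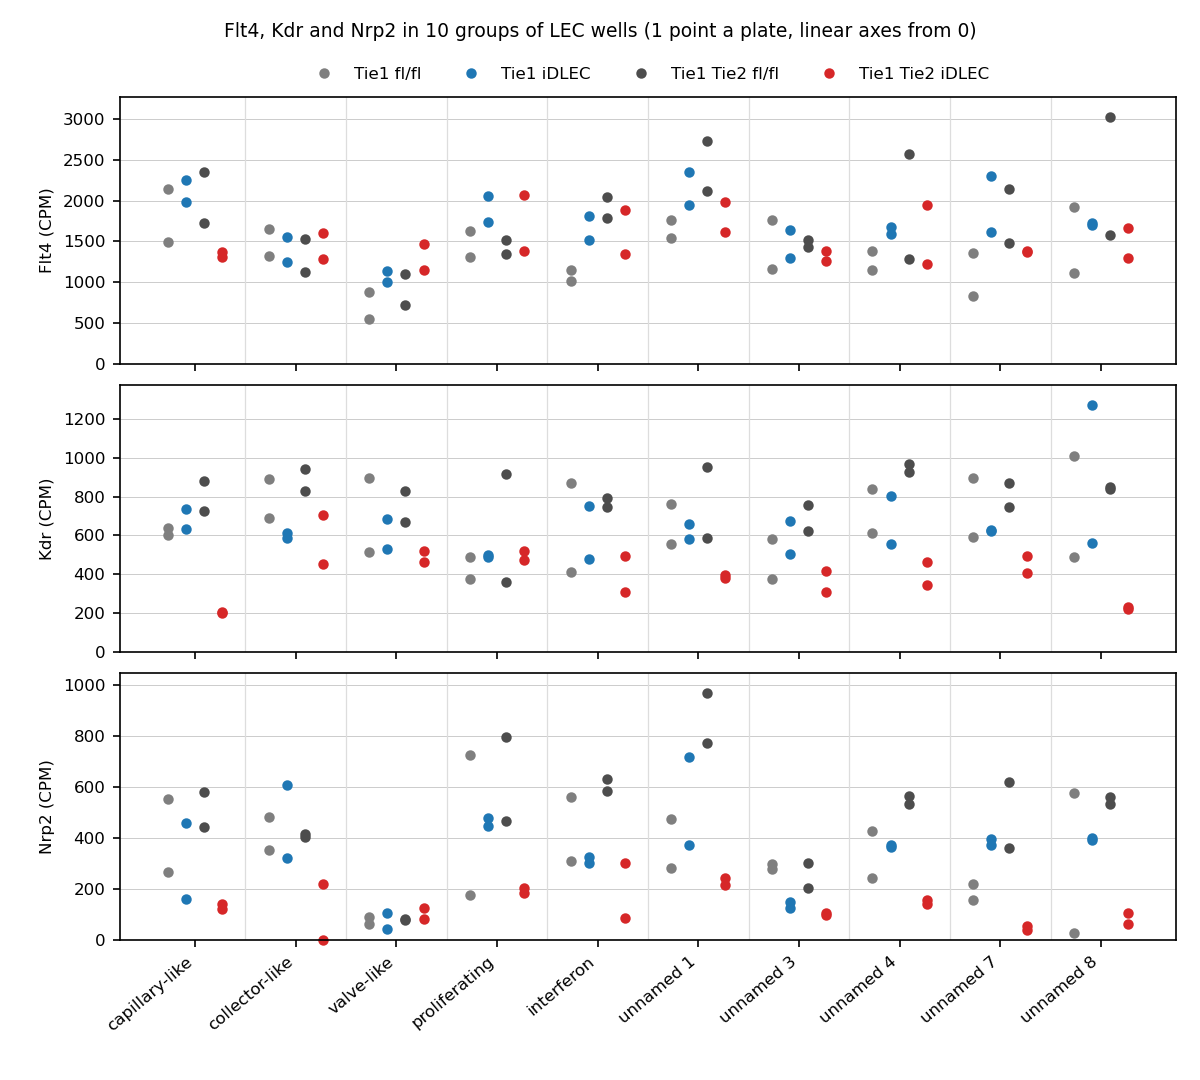
Level of Flt4, Kdr and Nrp2 (CPM, linear axes) in each of 10 groups of LEC wells, with 1 point per plate colored by genotype group. Nrp2 is low in valve-like wells of all 8 plates (43.5 to 124 CPM), and in capillary-like wells the Kdr points of the 2 Tie1 Tie2 iDLEC plates (198 and 204 CPM) lie under the other 6.

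To place the LEC pattern against blood vessels, the 5 genes were measured in the IgG droplet library, in which blood vascular endothelial cells (BECs) of the same skin were sequenced. There is 1 library per antibody, so intervals cover counting error only and no test between animals exists. LECs held 572 CPM of Flt4, 453 of Kdr, 394 of Nrp2, 17.4 of Flt1 and 4.76 of Nrp1. Every BEC group had the reverse profile for 3 members: Flt1 at 706 to 1318 CPM, Nrp1 at 319 to 1268 CPM and Flt4 at 13.2 to 99.6 CPM over 7 clusters. For a comparison with cells that are not endothelial, keratinocyte-like droplets (38 cells, median 10699 UMIs against 11952 in LECs) gave 49.9 CPM of Flt1, 22.8 of Nrp1, 24.2 of Kdr, 44.2 of Nrp2 and 4.28 of Flt4. A cluster led by the cartilage genes Col2a1 and Mia (97 cells) gave 11.5, 25.1, 18.1, 16.5 and 7.83 CPM in the same order. These cells may express some of the receptors, neuropilins above all, so they are not a measured floor of free RNA. Nrp1 in LECs was below both of these clusters and Flt1 lay between them. Without a measured floor, these values do not decide whether LECs as a whole express either gene. Of the 285 Flt1 UMIs of LECs, 141 came from valve-like cluster 9.

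Kdr and Nrp2 varied within the BECs. Kdr was lowest in arterial-like cells (cluster 6, 210.2 CPM) and highest in capillary-like cluster 8 (1302 CPM), which was led by Kit and Apln, whereas capillary-like cluster 2 (led by Car4 and Rgcc) held 766 CPM. Cluster 8 was also the highest in Flt1 (1318 CPM), Nrp1 (1268 CPM) and Flt4 (99.6 CPM). Nrp2 was at 30.5 CPM in arterial-like cells, between the keratinocyte-like and cartilage-led droplets, at 227 and 443 CPM in the capillary-like clusters 2 and 8, and at 489 and 334 CPM in the venous-like clusters 10 and 11. The venous-like clusters thus held Nrp2 above and below the 394 CPM of LECs, with Flt4 at 13.2 and 21.6 CPM. Within the LECs of this library, Nrp2 was at 711 CPM (capillary-like), 322 CPM (collector-like) and 69.2 CPM (valve-like), and Flt4 at 969, 469 and 201 CPM in the same order. The plates gave this order for Flt4 and low valve-like values for Nrp2. Nrp2 was higher in capillary-like than in collector-like wells on 3 of 4 control plates and on 4 of all 8 plates. The collector-like droplets were led by Rgs16, Socs3, Zfp36 and Icam1, genes of an acute response, and 1 of the valve-like clusters (cluster 9, led by Cd79a and Pou2f2) held Flt1 at 74.7 CPM against 6.55 CPM in the other (cluster 14, led by Irx3 and Kcnj2).

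**Figure D3:**
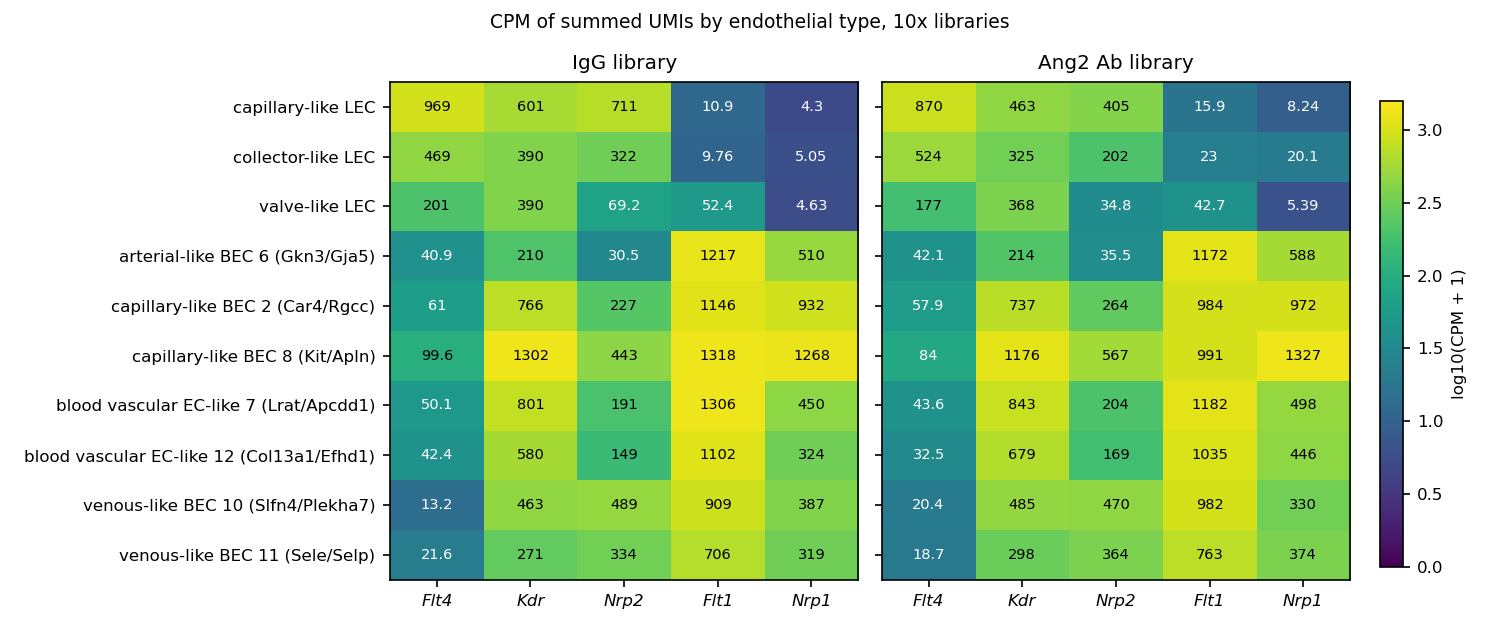
Heatmap of the 5 genes (columns) in 3 LEC classes and 7 BEC clusters (rows) of the IgG library and of the Ang2 Ab library (1 panel each), where the color is log10(CPM + 1) of summed UMIs and each cell prints its CPM. In the IgG panel Flt1 and Nrp1 are at 319 CPM or more in the BEC rows and at 52.4 CPM or less in the LEC rows, and Flt4 has the opposite order.

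After Tie1 deletion alone none of the members was called by the edgeR quasi-likelihood test over 19819 genes, and this test called no gene at all (0%; 858 genes had an unadjusted p under 0.05, and DESeq2 called 260). Tie1 itself was thus not called, at 692 and 648 CPM against 2218 and 2839 CPM in the controls. A missing call in this comparison therefore does not show that a gene was unchanged. Flt4 was at 1692 and 1657 CPM in the Tie1 iDLEC plates against 1535 and 1239.7 CPM in their controls, so both deleted plates were above both controls, but the difference of 0.27 ± 0.22 on the log2 scale (SE; 95% interval -0.23 to 0.77; adjusted p = 1) did not exceed the spread between plates. Of all genes tested, 15.5% had both Tie1 iDLEC plates above both controls. Kdr was at 634 and 599 CPM against 616 and 668 CPM (log2 change -0.06, 95% interval -0.48 to 0.36) and Nrp2 at 392 and 259 CPM against 407 and 289 CPM (-0.10, 95% interval -0.69 to 0.50). For these 2 genes the plates overlapped, and in Nrp2 the plates of 1 layout were close to each other (96.1% of control in the symbol layout and 89.4% in the Ensembl layout). In sums over wells, fewer expressing cells and less RNA per cell cannot be told apart.

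Combined Tie1/-2 deletion lowered Nrp2. Its level was 141 CPM in each of the 2 Tie1 Tie2 iDLEC plates, against 419 and 425 CPM in their Tie1 Tie2 fl/fl controls, which is 33.4% of the control. Both deleted plates lay under all 6 other plates. Of all genes tested, 20.5% had both deleted plates under both controls, and the share under all 6 other plates was not counted. The log2 change was -1.58 ± 0.27 (SE; 95% interval -2.19 to -0.97; edgeR, adjusted p = 0.0327), and Nrp2 was the 1 member called among 230 called genes of 19819 (1.16%; 0.853% called lower). The call was lost when any of the 4 plates of this strain was left out (adjusted p 0.111 to 0.187), whereas the change itself stayed between -1.62 and -1.57. Within the symbol layout Nrp2 was at 33.2% of its control and within the Ensembl layout at 33.7%.

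Kdr was also lower in these plates but did not pass the test. The Tie1 Tie2 iDLEC plates held 436 and 379 CPM of Kdr against 873 and 725 CPM in the controls, without overlap with any of the other 6 plates, and at 52.3% (symbol) and 50.0% (Ensembl) of its control within layouts. The log2 change was -0.97 ± 0.19 (SE; 95% interval -1.40 to -0.54; edgeR, adjusted p = 0.0586). With DESeq2, limma, no filter on low counts or the layout as a term, the adjusted p was 0.00168 to 0.0332. The other 8 of 12 alternatives left Kdr uncalled. When single plates were left out in turn, its log2 change ran from -1.12 to -0.83. Of all genes tested, 20.5% had both Tie1 Tie2 iDLEC plates under both controls, and the share under all 6 other plates was not counted.

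Flt4 was not called. The Tie1 Tie2 iDLEC plates were at 1736 and 1313 CPM against 1390.2 and 1866 CPM, on both sides of the controls, and the layouts gave opposite directions (70.4% of control in the symbol and 125% in the Ensembl layout). The log2 change was -0.09 ± 0.22 (SE; 95% interval -0.59 to 0.40; adjusted p = 0.955), an interval that excludes a change of the size of that of Nrp2. Flt1 was at 0 and 12.5 CPM against 1.25 and 4.48 CPM, and Nrp1 at 0.0315 and 3.17 CPM against 1.18 and 3.39 CPM. Both genes were lower on the Ensembl plate of each group. The Tie1 fl/fl plates had the same order. On the Tie1 iDLEC plates Flt1 was at 1.38 CPM on each, and Nrp1 at 0.126 (symbol) and 0.387 CPM (Ensembl). The cause was not tested. Without the 5 wells of high Flt1 count, the log2 change was -0.48 for Flt1, -3.02 for Nrp1, -0.98 for Kdr (adjusted p = 0.0546) and -1.57 for Nrp2 (adjusted p = 0.0323), so the values for Kdr and Nrp2 did not rest on those wells.

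When the 2 deletions were compared in 1 edgeR model, the log2 change of Nrp2 differed by -1.48 ± 0.37 between the Tie1 Tie2 and the Tie1 strain (SE; adjusted p = 0.323) and that of Kdr by -0.91 ± 0.26 (adjusted p = 0.419), and neither passed after adjustment by edgeR (20 genes, 0.101%, were called). Averaged over both strains, neither was called (Nrp2 -0.84, adjusted p = 0.106; Kdr -0.51, adjusted p = 0.179), against 181 called genes (0.913%). The average for Nrp2 was called without the filter on low counts, with DESeq2 and with the plate number as a block (adjusted p 0.00273 to 0.0414). The strains also differ in their control levels, as the Tie1 Tie2 fl/fl plates had the highest Kdr of the 8 plates. The 2 control pairs were not shared between the deletions.

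Marker sums of other cell types were compared over the same wells, since the sort and the classes could hold such cells. The 7 venous BEC markers summed to 42.4 and 57.2 CPM in the Tie1 Tie2 iDLEC plates against 551 and 591 CPM in their controls, with 1 or 2 of the 7 at 0 on any plate, and 8 arterial markers to 1598 and 1246 against 2977 and 2797 CPM. In the other direction, 9 pericyte and mural markers summed to 174 and 152 CPM against 77.7 and 28.0 CPM. As sums, the 7 general blood vascular markers (308 and 287 against 280.1 and 332 CPM) and the 6 LEC markers (6330 and 6569 against 7500 and 7226 CPM) were closer to the controls, as were 7 capillary BEC markers (405 and 629 against 518 and 621 CPM). The general blood vascular sum holds genes that moved in opposite directions. In it Emcn was at 69.2 and 128 against 235 and 278 CPM, and Sox17 at 88.1 and 37.8 against 0.438 and 5.89 CPM (both TMM-scaled). The 7 collector LEC markers (2799 and 1994 against 4639 and 4716 CPM) and the 6 capillary LEC markers (2326 and 1886 against 2747 and 2737 CPM) were lower in the deleted plates. None of the 5 members is in these lists. The BEC lists are not confined to BECs, as collector-like wells raised Vwf, Lrg1 and Vcam1 of the venous list. They also raised Gja5, Hey1 and Bmx of the arterial list. The pericyte and mural list is likewise not confined to such cells. Unnamed LEC cluster 1, in which 98.6% of wells held Prox1, raised Kcnj8 and Abcc9 of it. The Tie1 Tie2 iDLEC plates held 13 collector-like wells each, against 72 and 67 on their controls. The part of these sums in the Kdr and Nrp2 values was not tested.

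Within classes of LECs, Kdr fell in capillary-like wells. Its level was 198 and 204 CPM on Tie1 Tie2 iDLEC plates (26 and 23 wells) against 881 and 729 CPM in the controls (56 and 67 wells), without overlap, a log2 change of -2.02 ± 0.27 (SE; 95% interval -2.63 to -1.40; edgeR, adjusted p = 0.0279; 22 of 14208 genes called, 0.155%). The call was lost without either plate of the Tie1 Tie2 fl/fl group (adjusted p = 0.235 and 0.116), without either Tie1 Tie2 iDLEC plate (0.0567 and 0.0631) and without plate 1 of the Tie1 iDLEC group (0.0539). With a finer clustering the capillary-like class held other wells, 9 of 36 and 8 of 36 of the deleted plates' wells being shared with the coarser class, and Kdr there was at 408 and 343 CPM against 879 and 776 CPM (-1.17, adjusted p = 0.230). Nrp2 in capillary-like wells was at 121 and 142 CPM against 442 and 581 CPM (-1.96 ± 0.50, adjusted p = 0.237) and Flt4 at 1312 and 1365 CPM against 1727 and 2345 CPM (-0.60 ± 0.22, adjusted p = 0.450), both below their controls and not called. Tie1 deletion alone gave log2 changes of 0.16 (Kdr), 0.25 (Flt4) and -0.38 (Nrp2) in this class, none of them called. The Kdr difference between the deletions (-2.18) had an adjusted p of 0.354.

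Collector-like and valve-like wells gave no called member after Tie1/-2 deletion (0.352% and 0.11% of genes were called) or Tie1 deletion (0% in each class). In collector-like wells, of which the Tie1 Tie2 iDLEC plates had 13 each, Nrp2 was at 0.370 CPM (1 count) and 217 CPM against 405 and 416 CPM, so its change of -2.02 ± 1.38 on the log2 scale (SE; adjusted p = 0.621) was carried mainly by 1 plate, and Kdr was at 452 and 706 CPM against 942 and 832 CPM (-0.65, adjusted p = 0.449). In valve-like wells Nrp2, already low, was at 80.5 and 124 CPM against 76.2 and 79.8 CPM (0.40, adjusted p = 0.999), Flt4 at 1471 and 1149.95 CPM against 718 and 1099.9 CPM (0.58, adjusted p = 0.789) and Kdr at 519 and 461 CPM against 827 and 670.1 CPM (-0.58, adjusted p = 0.792). Cluster 11 of this class held 0 and 1 wells of the deleted plates, and in cluster 5 alone the changes were -0.07 for Nrp2, 0.11 for Flt4 and -0.44 for Kdr. Over all 10 groups of LEC wells, both Tie1 Tie2 iDLEC plates were below both controls in 9 groups for Kdr (all but proliferating wells), in 9 for Nrp2 (all but valve-like wells) and in 4 for Flt4. After Tie1 deletion the same held in 1 group for Kdr, 1 for Nrp2 and 0 for Flt4, and Flt4 was above both controls in 6. Among genes that averaged 10 CPM or more over the plates of a strain, 13.4% to 24.6% were below in a single group after Tie1/-2 deletion, 1.22% in at least 9 groups and 13.3% in at least 4, and after Tie1 deletion 0.626% were above in at least 6 groups. The groups share plates and are not independent.

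Blocking of Ang2 was compared in 1 library per antibody, so that ratios and their 95% counting intervals describe these libraries. In LECs Nrp2 was at 240 CPM with Ang2 Ab against 394 CPM with IgG, a ratio of 0.608 (0.579 to 0.639), and the ratio was below 1 in each class: 405 against 711 CPM in capillary-like cells (0.569), 202 against 322 CPM in collector-like cells (0.629) and 34.8 against 69.2 CPM in valve-like cells (0.503), where keratinocyte-like droplets held 59.8 and 44.2 CPM. Kdr was at 386 against 453 CPM (0.852, 0.819 to 0.887), with ratios of 0.770 in capillary-like, 0.835 in collector-like and 0.944 (0.859 to 1.04) in valve-like cells. Flt4 was at 575 against 572 CPM (1.00, 0.971 to 1.04), with 0.898 in capillary-like and 1.12 in collector-like cells. Of 10514 genes with at least 100 UMIs, 3.17% were below a ratio of 1/1.5 and 3.46% above 1.5, and among the members Nrp2 was below and Nrp1 above. The Nrp1 ratio fell under 1.5 with the top 5% of doublet scores removed (1.30, 0.863 to 1.95; 44 and 61 UMIs). In capillary-like cells 4.94% of genes were below and 2.79% above these ratios, in collector-like cells 3.68% and 3.88%, and in valve-like cells 2.26% and 2.4%, and Nrp2 was below in each class. In collector-like cells Nrp1 (20.1 against 5.05 CPM, 75 and 44 UMIs, ratio 3.97) and Flt1 (23.0 against 9.76 CPM, 86 and 85 UMIs, ratio 2.36) were above 1.5. Over all LECs the Flt1 ratio was 1.02 (0.831 to 1.26) with the top 5% of doublet scores removed. This removal is given for all LECs only, so the collector-like ratios come without it.

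Nrp1 (12.4 against 4.76 CPM, 114 and 78 UMIs, ratio 2.61) and Flt1 (24.7 against 17.4 CPM, 227 and 285 UMIs, ratio 1.42) were higher in the LECs of the Ang2 Ab library. With the top 5% of doublet scores removed, the ratios were 1.30 and 1.02, with counting intervals that include 1. In the Ang2 Ab library Nrp1 was at 18.1 CPM in keratinocyte-like and 28.5 CPM in cartilage-led droplets, and Flt1 at 12.7 and 23.6 CPM. Flt1 of LECs as a whole was above both, but among the classes only valve-like cells were (42.7 CPM, against 52.4 CPM with IgG). Capillary-like (15.9 CPM) and collector-like cells (23.0 CPM) lay between the 2 for Flt1. The Nrp1 level of LECs as a whole was below both, with collector-like cells between them. The BEC groups gave another pattern for Nrp2. Its ratio was 0.961 to 1.28 over 7 BEC clusters, highest in capillary-like cluster 8 (567 against 443 CPM), in which Flt1 had a ratio of 0.752 (991 against 1318 CPM). Proliferating cells (cluster 15, in which 60.9% of cells had Prox1), which were not counted as LECs, had Nrp2 at 438 against 351 CPM and Kdr at 436 against 298 CPM.

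**Figure D4:**
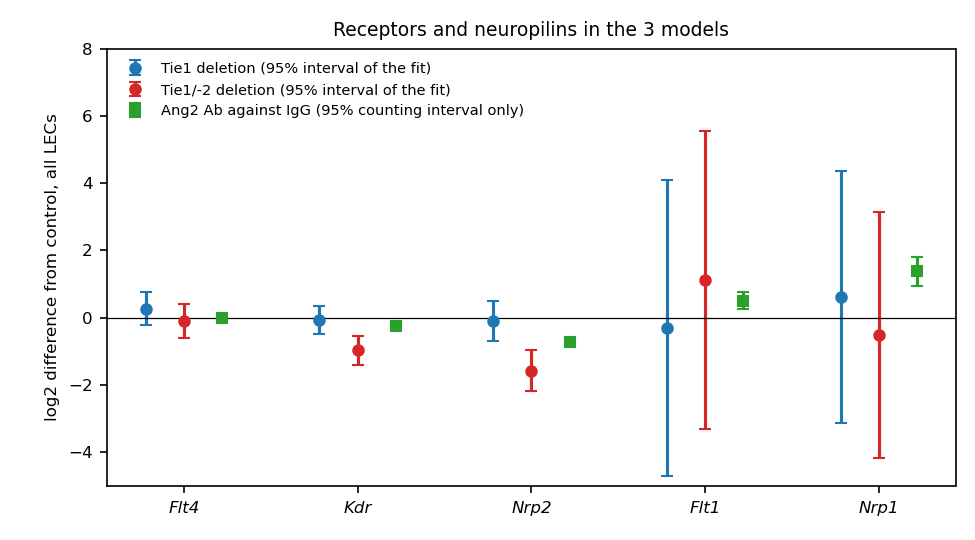
Log2 difference of the 5 genes in all LECs for Tie1 deletion (blue) and Tie1/-2 deletion (red), with 95% intervals of the edgeR fit over plates, and for Ang2 Ab against IgG (green squares), with 95% counting intervals of 1 library against 1. For Nrp2 the points of the deletions are at -0.10 and -1.58 and that of Ang2 Ab at a ratio of 0.608, while the intervals of Flt4 include 0 in each model.

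Because a VEGF-C receptor complex needs its parts in the same cell, detection was also counted per well, after drawing 50000 counts from each LEC well. Flt4, Kdr and Nrp2 were found together in 90.3% and 51.5% of wells of the Tie1 fl/fl plates, 71.2% and 85.1% of the Tie1 Tie2 fl/fl plates, 90.9% and 45.2% of the Tie1 iDLEC plates and 28.2% and 41.4% of the Tie1 Tie2 iDLEC plates. The symbol plate was the higher of its pair in every group, so the share moved with the layout, and the Tie1 Tie2 iDLEC plates were still the lowest 2 of the 8. LECs with Flt4 and neither neuropilin made up 8.47% and 38.3%, 23.4% and 12.7%, 8.79% and 42.4%, and 63.6% and 52.4% of wells in the same order. Without drawing to a fixed depth, the share with neither was 1.32% and 17.8%, 4.60% and 1.17%, 0.845% and 29.2%, and 54.1% and 22.1%, so it depended on depth, and the Tie1 Tie2 iDLEC plates lay above their controls at either depth. The share with all 3 differed from that of the controls by -43.4 percentage points after Tie1/-2 deletion and by -2.89 points after Tie1 deletion. The mean over strains (-23.1 points) had an exact two-sided permutation p of 0.222 over 36 arrangements within strains (0.3333 adjusted over 12 measures), where the smallest p possible is 0.0556, so this design could not pass the threshold. In capillary-like wells the difference after Tie1/-2 deletion was -63.9 points (mean over strains -33.9, exact permutation p = 0.111). In valve-like wells the share with Nrp2 changed by -29.0 points after Tie1/-2 deletion and by -12.7 points after Tie1 deletion. The mean over strains was -20.8 points (exact permutation p = 0.389). After Tie1/-2 deletion this share went against the Nrp2 CPM of valve-like wells, and no order was read from it.

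Detection of Nrp2 with Kdr was also counted. On the Tie1 Tie2 iDLEC plates Nrp2 was detected in 37.7% and 48.4% of LEC wells with Kdr and in 25.9% and 36.7% of wells without it. Their controls had 77.2% and 86.98% with Kdr against 50.0% and 71.4% without (22 and 7 wells), a gap of the same direction. The Tie1 strain did not show it on every plate. Its controls had 91.5% and 60.4% with Kdr against 100% and 58.7% without (2 and 46 wells). The Tie1 iDLEC plates had 91.2% and 56.25% against 100% and 48.3% (1 and 58 wells). These shares describe wells of 1 plate that share depth and class. Flt1 with Nrp1 was found in at most 1.21% of LEC wells on any plate. In the droplet libraries, thinned to 3000 UMIs per cell, 31.0% of IgG LECs (95% exact binomial interval 28.4% to 33.7%; 1218 cells, 31 shallower cells left out) and 18.5% of Ang2 Ab LECs (15.7% to 21.6%; 703 cells, 14 left out) held Flt4, Kdr and Nrp2 together, and without thinning 70.5% and 53.0%. Each antibody had 1 library, so the binomial intervals cover the sampling of cells within a library and hold no variation between animals. A difference between the antibodies was not tested. The share was 51.8% and 33.5% in capillary LECs, 27.2% and 16.4% in collector LECs and 4.41% and 1.05% in valve LECs. It was 0% in keratinocyte-like cells, which were 32 and 23 cells deep enough to be thinned. BECs held the other pair: Flt1 and Nrp1 were found together in 85.0% and 83.9% of capillary BEC cluster 2 and in 71.2% and 63.9% of arterial BEC cluster 6, against 0.164% and 0.996% of LECs.

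**Figure D5:**
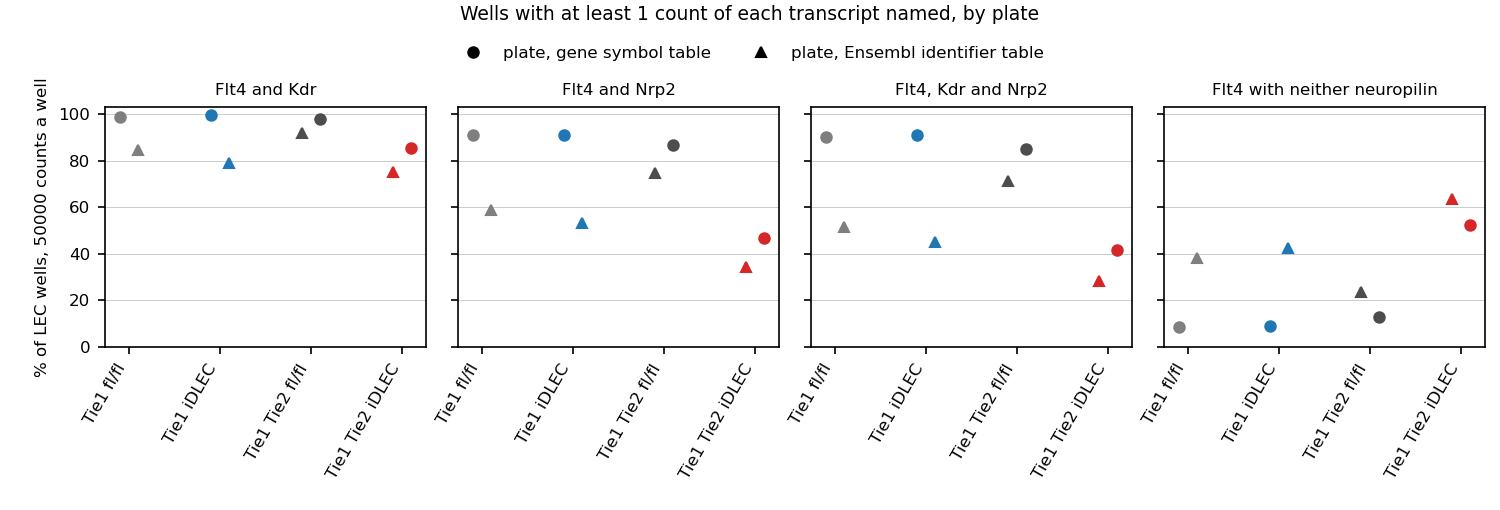
Share of LEC wells per plate (percent, after drawing 50000 counts per well) in 4 panels: Flt4 with Kdr, Flt4 with Nrp2, all 3 of these together, and Flt4 with neither neuropilin. Circles are symbol-layout and triangles Ensembl-layout plates of each genotype group, and the Tie1 Tie2 iDLEC plates have the lowest share with all 3 (28.2% and 41.4%) and the highest with Flt4 and no neuropilin (63.6% and 52.4%).

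The wider pathway was followed over 7 lists of 74 genes, all of which could be tested. After Tie1/-2 deletion 2 rose and 3 fell, and after Tie1 deletion 0 were called (the smallest p belonged to Esm1, Angpt2 and Sema3b, at log2 changes of 5.91, 1.38 and 4.05). Over all 19819 genes tested, 1.16% were called after Tie1/-2 deletion, 0.853% of them all as lower, and 0% after Tie1 deletion. Among the receptor partners and adaptors, 2 of 21 fell: Efnb2, the ephrin that promotes internalization of VEGF receptors, was at 16.4 and 11.8 CPM against 65.6 and 64.6 CPM (log2 change -2.21, adjusted p = 0.0133), and Dab2, a clathrin adaptor, was at 130.4 and 86.8 CPM against 650.3 and 486 CPM (-2.39, adjusted p = 0.00610). Of 14 genes induced by VEGF receptor signaling, Esm1 (89.2 and 53.4 against 0.0250 and 0.376 CPM, adjusted p = 0.0135) and Angpt2, which encodes Ang2 (3242 and 2610 against 269.9 and 522 CPM, adjusted p = 0.00518), rose, whereas Nos3, the endothelial nitric oxide synthase, fell (17.7 and 13.1 against 205 and 279 CPM, adjusted p = 0.00511). The list moved in both directions, with a median log2 change of 0.22 against 0.0059 over all genes.

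No gene of the other 5 lists was called after Tie1/-2 deletion: 0 of 5 VEGF family ligands (median log2 change -0.25), 0 of 6 genes of VEGF-C processing and binding (-0.67), 0 of 7 semaphorin ligands (0.09), 0 of 5 plexins (0.64) and 0 of 17 transcription factors placed upstream of VEGF receptors (0.08). Gata2, a transcription factor of this last list, was at 175 and 106 CPM against 384 and 383 CPM (-1.45, adjusted p = 0.0584). Averaged over strains the same 5 genes were called (0.913% of all genes). The difference between the deletions was called for none (Nos3, edgeR, adjusted p = 0.0705), against 0.101% of all genes. In capillary-like wells Dab2 (-2.45) and Foxc2 (-2.64) fell and Angpt2 (3.63) rose, of 61 list genes tested (0.155% of all genes were called). In collector-like wells Dab2 (-2.37) fell and Angpt2 (3.56) rose, of 62 tested (0.352% of all genes). In the LECs of the Ang2 Ab library, ratios past 1.5-fold were 0.659 for Efnb2, 0.550 for Dab2, 0.561 for Nr4a1, 0.661 for Icam1, 2.22 for Sox17, 5.31 for Apln (101 and 34 UMIs) and 6.10 for Angpt2, while the median over all genes was 0.999. By list, 2 of 18 receptor partners and adaptors were below, 1 of 17 transcription factors was above, and of 12 induced genes 2 were above and 2 below. Over all 10514 genes, 3.46% were above and 3.17% below.

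Genes whose levels followed a member most closely were ranked by Pearson correlation of log2(CPM + 1), as a description over points that share plates, libraries and depth. Over 24 points (3 classes on 8 plates), Kdr was most like Gprc5c (r = 0.86), Tek (0.83) and Clu (0.82), Flt4 like Tspan18 (0.83), Ltbp4 (0.78) and Susd4 (0.78), and Nrp2 like Tnfaip8 (0.91), Mindy2 (0.90) and Aldh2 (0.88). The points include the deleted plates, and Tek was itself deleted on the Tie1 Tie2 iDLEC plates. Its r with Kdr therefore includes the engineered loss and is not a measure of natural co-expression. Nrp1, which averaged 4.49 CPM over these points, was most like Ly6c1 (0.94), a marker of blood endothelium, and Flt1 (0.84). In 1 point, collector-like wells of Tie1 Tie2 iDLEC plate 2, Nrp1 was at 84.4 and Flt1 at 282 CPM. That point holds 2 of the 5 wells of high Flt1 count, which were rich in blood vascular markers. The r values were not computed without these wells and are not read as co-expression in LECs. Over 22 points of endothelial types in the droplet libraries, Flt1 and Nrp1 followed each other (r = 0.96), Flt1 and Flt4 ran opposite (r = -0.87), and Nrp2 was most like Meox1 (0.90), Rab31 (0.89) and Prr5 (0.84). Lims1 (0.96) and Frmd6 (0.95) were among the genes most like Flt4 there, and Kdr was most like Pcdh12 (0.90), Sh2d3c (0.89) and Kank3 (0.88).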

How the data were processed

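The authors sequenced single sorted wells with Smart-seq and, per the labels, aligned reads with TopHat2 2.1.1 to GRCm38 (mm10), used SAMtools 0.1.18, removed duplicate reads, counted with featureCounts (Subread) and analysed cells in R 3.5.1 with Seurat 4.0.6. The deposited plate tables hold raw read counts per gene and well, and the deposited droplet matrices hold raw UMI counts from Cell Ranger, which removes PCR copies. Duplicate removal without molecular identifiers can flatten abundant genes. Whether reads were counted by strand was not given in the sources used here.

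The 42612 genes in both plate layouts were kept, holding 95.8% to 97.1% of the counts, and ERCC spikes in the Ensembl layout (0.0832% to 0.155%) were left out. Wells with under 1000 genes were removed, as were droplets with under 500 genes or over 10% mitochondrial counts. Plate wells were not filtered on mitochondrial counts. Cells were clustered with scanpy 1.11.5 (2000 variable genes, 30 principal components, 15 neighbors, Leiden resolution 1.0), without the 5 members, Tie1, Tek, Angpt2, Prox1, Itga9, Lyve1, Gata2, Foxc2 and Cldn11. Genes were scaled within each plate or library before clustering, so membership of a class is relative to the other cells of the same plate or library. Scrublet marked 0.375% of droplets, 23 in the IgG and 1 in the Ang2 Ab library, and these were removed. With so few marked, it did not work as a doublet filter. Counts of LEC wells were summed per plate and tested with edgeR 4.0.16 (quasi-likelihood, TMM, Benjamini-Hochberg, threshold 0.05). The script was tested on simulated data first. No sample column was left without a label.

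The members and lists were chosen with earlier results of these data known. The 5 members were named in every comparison, called genes of the pathway lists were named (up to 8 by size, or the 3 of smallest p where none was called), and the 3 genes most like each member were ranked among genes averaging 10 CPM or more, without names of predicted, mitochondrial or ribosomal genes. The remaining gene of the ranking for Flt4 in the droplets is not reported here. Alternatives were DESeq2 1.42.0, limma 3.58.1, other filters, normalizations, clusterings and thinning depths, and 4 were added after seeing the data: without the 5 wells of high Flt1, the larger valve-like plate cluster alone, with the proliferating droplets, and without the larger valve-like droplet cluster.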

Additional observations from a re-analysis of the deposited data

Results flagged for a closer look

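Nrp2 in LECs of the male Tie1 fl/fl control plate (289 CPM) stood apart from the other 3 control plates (407 to 425 CPM), and it was also the plate of the Ensembl layout in its group. In the Tie1 Tie2 fl/fl plate 2, Flt1 in valve-like wells (9.09 CPM) and Nrp1 in collector-like wells (16.7 CPM) were far above the other control plates. This plate held 2 of the 5 wells with at least 100 Flt1 counts. These 3 were found among 20 groups of 4 control plates, of which chance gives about 1 in 20.

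After Tie1/-2 deletion, both plates lay on opposite sides of their controls in different classes of LECs for Flt4 and Nrp2 (CPM scaled by TMM within a class). None of these changes was called within a class, and the difference between the classes was not tested. Flt4 was at 1554 and 1077 CPM in valve-like wells of the deleted plates, above the 713 and 1049.8 CPM of their controls, whereas in capillary-like wells it was at 1333 and 1314 CPM, below 1781 and 2242 CPM. Nrp2 was at 85.1 and 116 CPM in valve-like wells, above 75.8 and 76.1 CPM, and in capillary-like wells at 123 and 136 CPM, below 456 and 555 CPM. Both deleted plates were also below both controls for Nrp2 in collector-like wells (0.384 and 200.3 against 411 and 405 CPM). The valve-like change of Nrp2 reversed in cluster 5 alone, the larger of the valve-like clusters (log2 change -0.07), and at resolution 2.0 (-0.21).

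Of wells left out of the LECs, 270 led by fibroblast genes held Nrp1 at 12.4 CPM, against 1.23 CPM in LEC wells, and had a median of 16003.5 counts per well against 220254. The 25 wells led by keratinocyte genes held Nrp2 at 485 CPM against 313 CPM. Both sets also held Prox1 (654 and 372 CPM) and Flt4 (1431 and 1385 CPM).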

How the results depend on the processing

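With 2 plates per group, 2 table layouts and 1 droplet library per antibody, precision was limited by the number of plates, and values of Flt1 and Nrp1 by their low counts. Of 656 alternative values that answer a comparison, 552 kept their direction and side of the threshold, or moved by less than the spread, 21 reversed, 10 lost a call, 11 gained one and 62 moved. Of 206 others, 29 reversed. The cause was not tested for any of these, and the collector-like class could not be fitted at resolution 2.0, where a plate held 9 wells.

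In all LECs, the number of called genes after Tie1 deletion was 282 without a filter on low counts and 260 with DESeq2. After Tie1/-2 deletion it was 1182, 1130 and, with the 4 plates of that strain alone, 150. For the difference between the deletions it was 661, 513 and, with the layout as a term, 12, and for the average 1075 and 969. Kdr after Tie1/-2 deletion was called without the filter (-0.98, adjusted p = 0.0163), with the layout as a term (-0.97, 0.0332), with DESeq2 (-0.96, 0.00168) and with limma (-1.02, 0.0258), all as log2 changes. The Nrp2 difference between the deletions was called without the filter (-1.496) and with DESeq2 (-1.46). The average effect was called for Nrp2 without the filter (-0.84, adjusted p = 0.00273) and with DESeq2 (-0.84, 0.00400), and for Kdr with DESeq2 (-0.51, 0.0404). Flt1 and Nrp1 reversed most often. Flt1 was at 0.19 after Tie1 deletion with the layout as a term, at -0.18 (limma) and -0.48 (without the 5 wells of high Flt1) after Tie1/-2 deletion, at -0.18 for the difference without these wells, and at -0.33 (limma) and -0.39 (without these wells) on average. Nrp1 was at -0.0073 after Tie1 deletion with limma, and on average at -0.29 with no cluster of wells removed, -0.37 with limma and -1.20 without the 5 wells.

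Plates of the Tie1 strain share the numbers 1 and 2 across genotypes, but these numbers also mark sex and layout, and the deviations of same-numbered plates correlated at r = 0.175 over 19819 genes in only 2 pairs, so the numbers were not taken as pairs. In both strains the plate identifiers are consecutive for a deleted and a control plate of the same layout. Whether such plates were handled together is not given in the labels, and the main tests did not pair them. The comparisons within layouts set these same plates against each other. With a replicate block in the fit, Nrp2 after Tie1/-2 deletion was at -1.58 (edgeR, adjusted p = 0.0138) and Kdr at -0.97 (adjusted p = 0.0889), the average Nrp2 effect was called (-0.85, adjusted p = 0.0414) and the average of Nrp1 was at -0.0032. The block gave 0 called genes for Tie1 deletion, 204 for Tie1/-2 deletion, 17 for the difference and 150 for the average.

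Within classes, Kdr in capillary-like wells was not called at resolution 2.0 (-1.17). Nrp2 in valve-like wells was at 0.33 after Tie1 deletion at resolution 2.0, and after Tie1/-2 deletion at -0.21 at resolution 2.0 and -0.071 in cluster 5 alone, where 3 genes were called. With resolution 2.0 and with genes scaled over all plates, the log2 difference of capillary-like to valve-like wells was 1.49 and 1.46 for Flt4 and 3.76 and 3.74 for Nrp2, and that of collector-like to valve-like wells 3.33 and 3.49 for Nrp2. With genes scaled over all plates, each pair of these classes was present on 7 plates.

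When single plates were left out in turn, the lowest and highest log2 changes after Tie1 deletion were -0.84 and 0.58 for Flt1, -0.11 and 0.0038 for Kdr, -0.40 and 1.26 for Nrp1 and -0.43 and 0.17 for Nrp2. After Tie1/-2 deletion they were -10.87 and 2.31 for Flt1, -0.35 and 0.13 for Flt4, -6.12 and 0.44 for Nrp1 and -1.62 and -1.57 for Nrp2, with 75 to 210 genes called. The Flt1 difference ran from -10.57 to 2.62, with 2 to 17 genes called. On average Flt1 ran from -5.59 to 1.00, Flt4 from -0.043 to 0.20 and Nrp1 from -2.75 to 0.53, with 48 to 143 genes called. In capillary-like wells Nrp2 after Tie1 deletion ran from -1.28 to 0.17 and Kdr after Tie1/-2 deletion from -2.20 to -1.82, with 1 to 25 genes called. In collector-like wells the ranges after Tie1 deletion were -1.06 to 7.32 (Flt1), -0.21 to 0.037 (Flt4), -1.08 to 1.59 (Nrp1) and -0.34 to 0.50 (Nrp2), and after Tie1/-2 deletion -9.79 to 4.99 (Flt1), -0.18 to 0.28 (Flt4), -9.89 to 4.93 (Nrp1) and -10.08 to -1.05 (Nrp2), with 9 to 323 genes called. In valve-like wells they were -6.29 to 8.09 (Flt1), -0.54 to 0.14 (Kdr) and -0.75 to 0.45 (Nrp2) after Tie1 deletion and -8.82 to 8.61 (Flt1) after Tie1/-2 deletion, with 7 to 36 genes called.

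The Ang2 Ab to IgG ratio in LECs moved for Flt1 to 1.82 with at most 5% mitochondrial UMIs, 1.02 with the top 5% of doublet scores removed and 1.87 without droplet cluster 9, for Kdr to 0.890 with the proliferating cluster, for Flt4 to 1.05 (5% mitochondrial UMIs) and 0.946 (mean CPM per cell), for Nrp1 to 1.501 (resolution 2.0), 1.30 (doublet scores) and 1.86 (proliferating cluster), and for Nrp2 to 0.676 (5% mitochondrial UMIs), 0.652 (proliferating cluster) and 0.543 (mean CPM per cell). The share of LECs with Flt4, Kdr and Nrp2 was 13.5% (IgG) and 7.03% (Ang2 Ab) at 1500 UMIs per cell and 70.5% and 53.0% without thinning.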

Other observations

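The remaining marker lists were summed over the LEC wells of each plate. Over the 8 plates, 5 fibroblast markers summed to 19.3 to 223 CPM, highest in the Tie1 Tie2 fl/fl plate 1, 5 keratinocyte markers to 8.91 to 62.9 CPM, 5 immune markers to 7.28 to 20.4 CPM and 4 Schwann cell markers to 0.793 to 8.59 CPM. The 6 proliferation markers ranged from 44.8 to 338 CPM, with both extremes in the Tie1 fl/fl group, the 6 interferon markers from 126 to 271 CPM and the 4 valve markers from 825 to 1644 CPM.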
